A study of Mus musculus with 6 samples.

Results

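The CXC chemokine ligands of bone marrow dendritic cell cultures were examined for their response to midkine, a heparin-binding growth factor. The members were 8 genes chosen by symbol, Cxcl1, Cxcl2, Cxcl3, Cxcl5, Cxcl10, Cxcl12, Cxcl14 and Cxcl16, and 7 of them were among the 14912 genes of the deposited table. Expression of Cxcl3 was not analysed here. Wild-type C57BL/6J bone marrow cells were grown with FLT3 ligand (FLT3LG) at 50 ng/ml, with fresh medium and ligand on day 7. The 3 midkine samples received human recombinant MIDKINE at 10 ng/ml during the last 2 days, and the 3 control samples received no midkine, so both groups share the FLT3 ligand and differ in the added protein. RNA was measured by 3′ end sequencing of the cultures in bulk.

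CXC chemokines are small secreted proteins that steer leukocytes along gradients by binding G protein-coupled CXC receptors. Those with the tripeptide glutamate-leucine-arginine (ELR) before the first cysteines, among them Cxcl1, Cxcl2 and Cxcl5, attract neutrophils through Cxcr2 and are induced by interleukin 1, tumour necrosis factor and NF-kB. Cxcl10 is induced by interferon and draws Cxcr3-bearing T cells. Cxcl12 binds Cxcr4 and holds blood progenitors in the marrow, where reticular stromal cells are its main source. Cxcl14 is made by epithelia and fibroblasts, and Cxcl16 is a membrane-anchored ligand of Cxcr6 carried by dendritic cells and macrophages. Cxcl2, Cxcl10 and Cxcl16 were taken as the myeloid ligands and Cxcl1, Cxcl5, Cxcl12 and Cxcl14 as the stromal ones.

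Cxcl14 and Cxcl12, both stromal ligands, changed in opposite directions with midkine. Cxcl14 was 3.79-fold higher by the ratio of group means, and Cxcl12 fell to 0.622 of its control mean. Cxcl16 rose, Cxcl1 passed the test on few reads, and Cxcl2, Cxcl5 and Cxcl10 did not pass it. Of the 7 measured members 3 were higher and 1 was lower (limma, Benjamini-Hochberg adjusted p under 0.05 over all genes tested). Over all 11844 genes tested 20.9% were higher, 21.8% were lower and 42.7% were called in either direction, so calls were common in this comparison. The median log2 fold change was 0.63 for the 7 members and -0.0086 for all genes tested. Cxcl1 and Cxcl2 had control means under 10 normalised counts and met the minimum mean of 10 only because the midkine values entered the mean, so these counts describe the members and carry no weight of their own.

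Library totals were 5685055 to 6453768 reads in midkine samples and 5089338 to 5532055 in control samples. The labels do not say whether replicates came from separate mice or cultures, so p-values cover only the variation among these 6 samples, part or all of which could be technical. All 12 dendritic cell markers were measured, with 3 higher and 7 lower, or 1 and 8 when scaled to total counts. The higher ones were Itgax at 743 ± 46.4 normalised counts in midkine and 417 ± 28.0 in control samples, Sirpa at 1082 ± 21.5 in midkine and 901 ± 11.0 in control samples, and H2-Ab1 at 18314 ± 921 in midkine and 15193 ± 382 in control samples. Among the lower ones Siglech, a plasmacytoid cell lectin, averaged 102 ± 18.3 normalised counts in midkine and 816 ± 36.3 in control samples (SD, n = 3 each). Xcr1, the type 1 dendritic cell chemokine receptor, averaged 635 ± 161 in midkine and 1876 ± 271 in control samples. Of 11 listed stromal markers 9 were tested, with 8 higher and 0 lower, or 7 and 0 when scaled to total counts. Lum was not in the deposited table and Thy1 was below the minimum mean. The summed level of the stromal list was 46575 to 49378 normalised counts in midkine and 14913 to 18300 in control samples. Mitochondrial ribosomal RNA took 18.1% to 20.9% of reads in midkine and 9.33% to 9.86% in control samples. When libraries were instead scaled to their total counts, the median of all genes moved to -0.26, and 1283 genes were higher and 4817 lower, in place of 2481 and 2578 (21.03% of calls higher, in place of 49.0%). In bulk RNA, fewer cells of a type and less RNA per cell cannot be told apart.

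A RefSeq promoter of 300 bases, from 250 before to 50 after the start, was at hand for 6 of the 8 members (GRCm38.p6). Those of the neighbouring genes Cxcl1 (chr5:90890995-90891294, plus strand) and Cxcl2 (chr5:90903649-90903948, plus strand) are shown because both hold the same letters of the NF-kB motif, and that of Cxcl10 (chr5:92348840-92349139, minus strand) because it holds letters of the NF-kB motif and of an interferon response element. Those of Cxcl12 (chr6:117168285-117168584, plus strand) and Cxcl14 (chr13:56296502-56296801, minus strand) belong to the pair that moved most clearly. Capitals mark the NF-kB consensus motif or the interferon element, which is GAAA, any 2 bases and GAAA again, both searched on both strands.
Cxcl1: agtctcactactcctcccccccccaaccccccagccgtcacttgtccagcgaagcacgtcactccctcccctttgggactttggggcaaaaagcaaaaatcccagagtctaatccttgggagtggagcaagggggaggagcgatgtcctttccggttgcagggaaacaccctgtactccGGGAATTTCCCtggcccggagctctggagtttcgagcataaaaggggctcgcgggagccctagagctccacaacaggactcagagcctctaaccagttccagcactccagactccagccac
Cxcl2: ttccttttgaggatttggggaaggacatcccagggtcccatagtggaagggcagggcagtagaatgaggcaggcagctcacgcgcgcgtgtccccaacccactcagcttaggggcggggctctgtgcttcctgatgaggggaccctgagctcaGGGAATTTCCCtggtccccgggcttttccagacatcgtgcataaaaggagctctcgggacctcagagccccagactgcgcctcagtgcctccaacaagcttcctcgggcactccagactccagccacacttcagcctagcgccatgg
Cxcl10: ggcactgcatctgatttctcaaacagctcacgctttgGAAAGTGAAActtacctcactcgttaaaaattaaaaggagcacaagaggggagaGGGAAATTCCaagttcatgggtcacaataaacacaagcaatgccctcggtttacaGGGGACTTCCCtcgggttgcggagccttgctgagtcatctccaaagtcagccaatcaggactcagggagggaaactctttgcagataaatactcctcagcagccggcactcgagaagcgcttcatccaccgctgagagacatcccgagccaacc
Cxcl12: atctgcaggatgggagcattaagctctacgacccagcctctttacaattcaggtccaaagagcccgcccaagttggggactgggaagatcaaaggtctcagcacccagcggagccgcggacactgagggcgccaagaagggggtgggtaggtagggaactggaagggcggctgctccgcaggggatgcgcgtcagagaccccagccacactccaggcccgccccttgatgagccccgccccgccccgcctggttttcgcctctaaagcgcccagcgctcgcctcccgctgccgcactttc
Cxcl14: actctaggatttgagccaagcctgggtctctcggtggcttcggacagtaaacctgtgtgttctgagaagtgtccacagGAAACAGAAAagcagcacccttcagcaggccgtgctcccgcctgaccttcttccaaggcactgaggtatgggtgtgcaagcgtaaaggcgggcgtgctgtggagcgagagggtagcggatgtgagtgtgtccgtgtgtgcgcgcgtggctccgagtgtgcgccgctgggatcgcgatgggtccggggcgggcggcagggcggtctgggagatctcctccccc
Cxcl1, Cxcl2, Cxcl3 and Cxcl10 held the NF-kB motif, as did 8.46% of 32851 promoters of the same length. In Cxcl1 it lay 71 bases before the start and in Cxcl2 97, each time with the same letters, GGGAATTTCC, which Cxcl3 shares and which 0.0883% of promoters hold on either strand. In Cxcl10 it lay 159 and 104 bases before the start. The match at 159 reads GGAATTTCCC on the other strand, letters that Cxcl1, Cxcl2 and Cxcl3 also hold and that 36 of the 32851 promoters hold on either strand. Matches that overlap, on the same or the other strand, were marked as 1 run. The interferon motif lay 213 bases before the start of Cxcl10 and 172 before that of Cxcl14, and 3.44% of promoters held it. It does not overlap the NF-kB motif in these windows. Neither was found in the Cxcl12 window, where 64.7% of bases were G or C, against a median of 52.7% over all promoters. The motifs were chosen after the sequences had been read, and a match is a description of letters, not of a bound site. The shared letters were taken from the Cxcl1 and Cxcl2 promoters themselves, so how few promoters hold them is not a test.

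The neutrophil-attracting ligands Cxcl1, Cxcl2 and Cxcl5 had higher values in midkine samples but lay close to the minimum mean. Cxcl1 alone of the 3 passed the test, and its call was lost under 9 of 18 alternatives. Cxcl1 (chromosome 5, 90891241 to 90893115, GRCm38) had 16.9, 11.0 and 15.1 normalised counts in midkine samples and 5.67, 8.40 and 6.25 in control samples. Every midkine value lay above every control value, but the values rest on 42 midkine and 21 control reads in all. The log2 fold change on the log2(value + 1) scale was 0.98 (SE 0.38, limma adjusted p = 0.0420), a scale that understates changes of low genes. The call was lost without midkine replicate 1 (0.86, adjusted p = 0.137), midkine replicate 3 (0.93, 0.119), control replicate 1 (0.87, 0.0973) or control replicate 3 (0.93, 0.0822), and with scaling to total counts (0.74, 0.11).

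Cxcl2 (chromosome 5, 90903871 to 90905938), which macrophages release early in inflammation, had 12.4, 15.6 and 18.2 normalised counts in midkine samples and 6.61, 12.1 and 10.4 in control samples. The lowest midkine value stood just above the highest control value. Its log2 fold change of 0.63 (SE 0.36) did not pass (limma adjusted p = 0.160). Cxcl5 (chromosome 5, 90759360 to 90761624) had 27.0, 20.2 and 15.1 in midkine and 11.3, 14.9 and 11.5 in control samples. The groups again did not overlap, by a narrow margin, and the log2 fold change was 0.66 (SE 0.32, limma adjusted p = 0.0976). Among all genes tested 51.3% had groups that did not overlap, so such separation was common. The summed level of Cxcl1, Cxcl2 and Cxcl5 was 46.7 to 56.3 normalised counts in midkine and 23.6 to 35.5 in control samples. Of the 30-base words in Cxcl2 transcripts 7.79% also occur in Cxcl3, and 0% of those in Cxcl1 transcripts occur in another gene, so some Cxcl2 reads could be split with Cxcl3.

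**Figure D1:**
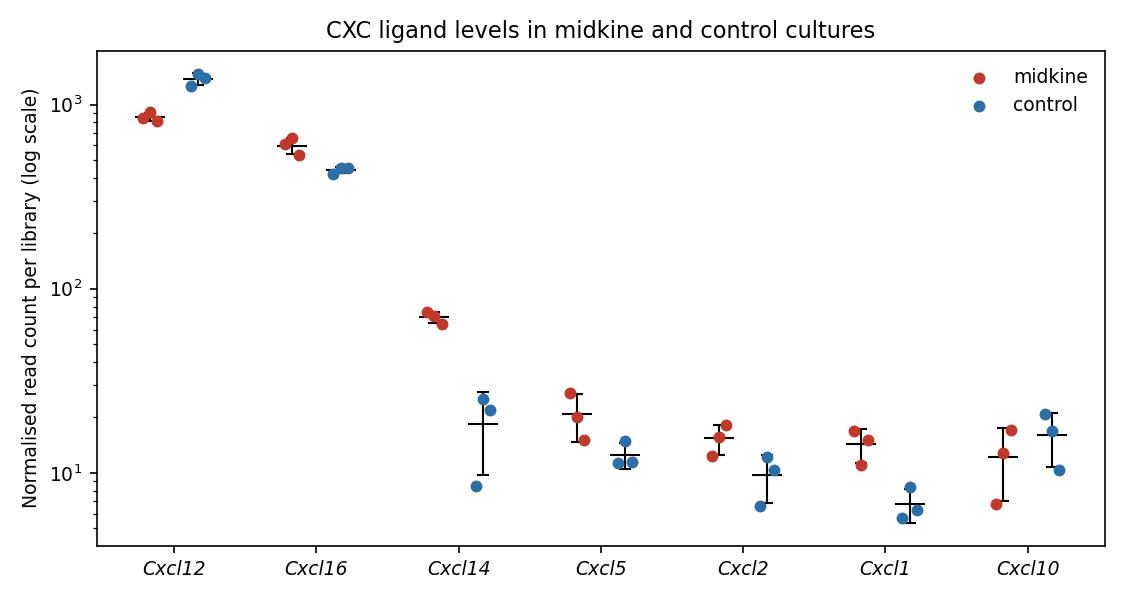
Normalised read count of each CXC ligand in each library on a log scale, with midkine samples in red left of control samples in blue; black bars give the mean ± SD of 3 libraries. Cxcl14 lies between 64.6 and 74.4 in midkine samples and between 8.50 and 25.2 in control samples, while the Cxcl10 groups overlap.

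Several genes known to induce or restrain these ligands changed. Of 19 tested inducers and regulators of the ELR ligands 11 were higher and 4 were lower, with a median log2 fold change of 0.41, or 8 and 6 when scaled to total counts. Il1b, the interleukin 1 beta gene, averaged 1564 ± 52.9 normalised counts in midkine and 314 ± 30.7 in control samples (SD, n = 3 each). Il1rn, which encodes the antagonist of the same receptor, averaged 90.4 ± 12.1 in midkine and 271 ± 39.5 in control samples (log2 fold change -1.57, limma adjusted p = 5.1e-10). Cebpb, a transcription factor of inflammatory genes, rose by 1.97 on the log2 scale. Zfp36l1, an RNA-binding protein that speeds decay of messages with AU-rich ends, rose by 0.91 on that scale. The neutrophil list, whose cells these ligands attract, held 1 higher and 3 lower genes of 5 tested. With scaling to total counts these were 1 and 4. Ngp, a lower gene, averaged 5.52 normalised counts in midkine and 63.9 in control samples. Mpo, lower only with scaling to total counts, averaged 8.27 in midkine and 15.5 in control samples. Both met the minimum mean only through their control values, so these counts carry no weight of their own. The summed level of the list was 111 to 127 in midkine and 558 to 683 in control samples, and S100a8 and S100a9 made up most of the control sum. S100a8 averaged 18.9 ± 6.19 in midkine and 292 ± 35.0 in control samples. The defining marker Ly6g had 0 reads in midkine and 1 in control samples. Mmp8 was the higher gene, at 51.5 ± 11.0 in midkine and 21.7 ± 3.50 in control samples. Below the minimum, Csf3r had 41 midkine and 15 control reads. Ltf (4 and 42), Camp (11 and 34) and Retnlg (1 and 8), also below it, went the other way. The part of these cells in the ligand values was not tested.

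Cxcl10 did not pass the test, whereas its neighbour Cxcl9 and their shared receptor Cxcr3 fell. Cxcl10 (chromosome 5, 92346638 to 92348889, minus strand) had 6.76, 12.8 and 17.2 normalised counts in midkine samples and 20.8, 16.8 and 10.4 in control samples. The groups overlapped, with the lowest value in midkine replicate 1 and the highest in control replicate 1. The log2 fold change was -0.39 (SE 0.37, limma adjusted p = 0.416), on 37 midkine and 50 control reads in all. Without midkine replicate 1 it was -0.05 and without control replicate 3 it was -0.66, neither called. Its exons overlap Art3 on the other strand, and how strand was handled in counting is not given in the sources used here.

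Cxcl9, another interferon-induced ligand of Cxcr3 that lies 18559 bases from Cxcl10, averaged 8.95 ± 3.05 normalised counts in midkine and 37.9 ± 9.59 in control samples (log2 fold change -1.99, limma adjusted p = 1.2e-05). With a midkine mean under 10, Cxcl9 met the minimum mean only through its control values. Cxcl11, the third interferon-induced ligand of Cxcr3, had 3 midkine and 8 control reads and was below the minimum. Cxcr3 averaged 35.7 ± 7.51 in midkine and 200 ± 23.8 in control samples (log2 fold change -2.46, limma adjusted p = 5.5e-12). Of 14 tested interferon regulators of Cxcl10 2 were higher and 8 were lower, with a median log2 fold change of -0.42, or 1 and 8 when scaled to total counts. Irf7 fell by 3.11 on the log2 scale and Tlr3, an endosomal sensor of double-stranded RNA, by 1.30. Irf9, part of the machinery that turns interferon signals into transcription, fell by 0.79. Irf1, an interferon-induced transcription factor that was named after its values were seen, averaged 471 ± 42.5 in midkine and 456 ± 70.2 in control samples and was not called. The plasmacytoid marker Siglech fell beside these genes, by 3.00 on the log2 scale, and its part in them was not tested.

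**Figure D2:**
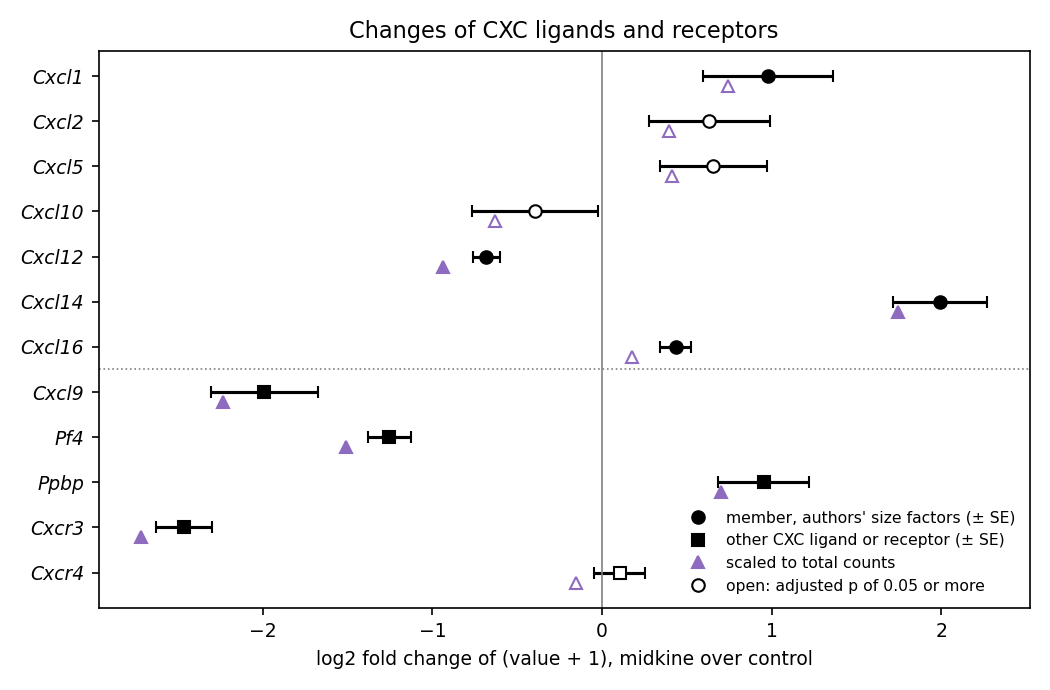
Log2 fold change of (value + 1), midkine over control, for the measured members (circles) and other CXC ligands and receptors (squares) with the limma standard error, and for the same genes scaled to total counts (triangles); filled symbols have an adjusted p under 0.05. Cxcl14 at 1.99 and Cxcl12 at -0.68 are filled under both scalings, and Cxcl1 and Cxcl16 are open when scaled to total counts.

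Cxcl12 was the most abundant CXC ligand in both groups and was lower with midkine. Cxcl12 (chromosome 6, 117168535 to 117181367) had 842, 909 and 819 normalised counts in midkine samples and 1268, 1472 and 1389 in control samples. The midkine values were all well below the control values, on 2551 midkine and 4253 control reads. The log2 fold change was -0.68 (SE 0.08, limma adjusted p = 1.7e-07), and the call held under all 19 alternatives tried for it, between -0.94 and -0.63. The annotation holds 4 transcripts of Cxcl12 with 4 distinct ends, and the table gives 1 value for the gene, so its isoforms were not told apart.

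Cxcl12 moved against the matrix genes of stromal cells. Col1a1, the type I collagen gene, averaged 11177 ± 1633 normalised counts in midkine and 3485 ± 435 in control samples. Postn rose by 2.35, Acta2, the smooth muscle actin gene of myofibroblasts, by 2.10 and Col1a2 by 1.25 on the log2 scale. Within each library, where scaling cancels, the log2 ratio of Cxcl12 to Col1a1 was -3.84 to -3.60 in midkine and -1.39 to -1.24 in control samples. The ratio to Pdgfrb, a receptor of mural and stromal cells, was 3.33 to 3.91 in midkine and 4.86 to 5.14 in control samples. Both ratios separated the groups.

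Markers of the reticular cells that are rich in Cxcl12 were lower or were not called. Of 7 tested 0 were higher and 3 were lower, with a median log2 fold change of -0.38, or 0 and 6 when scaled to total counts. Kitl, the stem cell factor gene, averaged 45.5 ± 14.7 normalised counts in midkine and 225 ± 9.85 in control samples (SD, n = 3 each). Angpt1, which encodes a ligand of Tie2, averaged 21.4 ± 5.41 in midkine and 104 ± 5.70 in control samples. Runx2, a factor of bone-forming cells that plasmacytoid dendritic cells also express, fell by 1.52 on the log2 scale. Foxc1 (0.08), Vcam1 (-0.11), Cdh11 (-0.16) and Alpl (-0.38) were not called. Lepr, Ebf3, Adipoq and Il7, also on the list, were not among the 14912 genes of the deposited table and could not be analysed. Within each library the log2 ratio of Cxcl12 to Kitl was 3.71 to 4.65 in midkine and 2.56 to 2.68 in control samples. It was higher with midkine, as Kitl was lowered further. The ratios to Angpt1 and Runx2 were also higher, with mean differences of 1.58 and 0.83. Those to Foxc1, Vcam1 and Cdh11 were lower (-0.76, -0.57 and -0.52), and that to Alpl (-0.30) overlapped between groups. The summed level of the reticular list was 748 to 838 in midkine and 1496 to 1562 in control samples. Runx2 had the highest level of the list, at 244 ± 32.4 in midkine and 694 ± 7.01 in control samples, so the sum leans on it. The part of these genes in the Cxcl12 value was not tested.

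**Figure D3:**
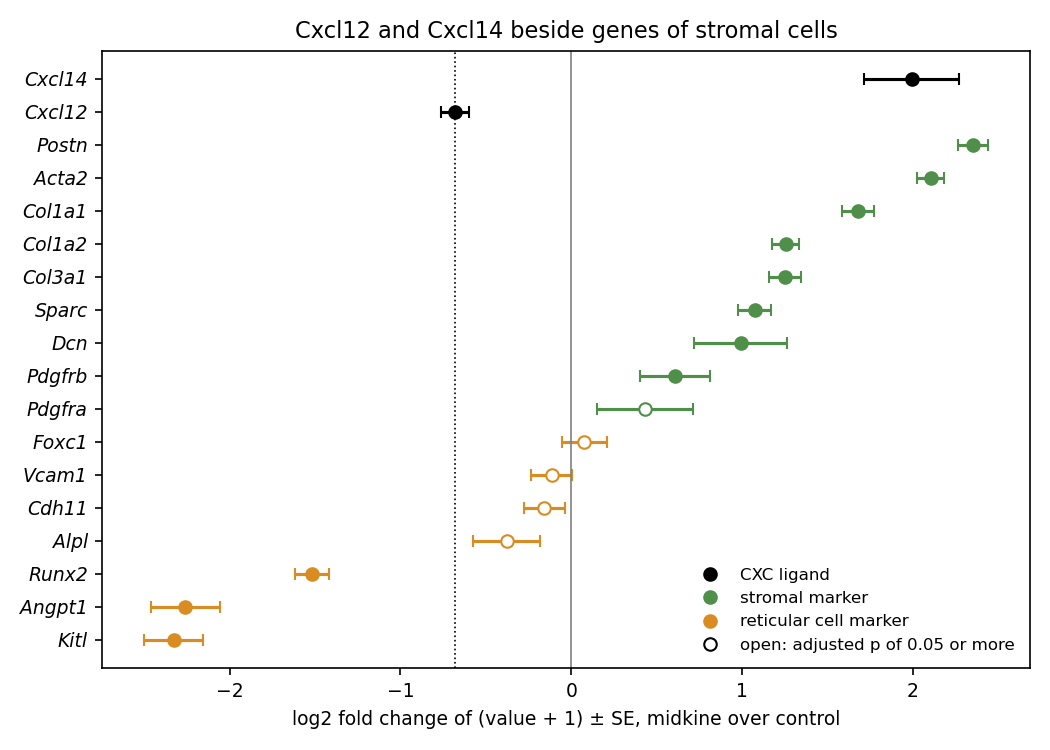
Log2 fold change of (value + 1) with standard error, midkine over control, for Cxcl14 and Cxcl12 (black), stromal markers (green) and reticular cell markers (orange); the dotted line stands at the Cxcl12 value of -0.68 and open symbols have an adjusted p of 0.05 or more. Postn at 2.35 and Kitl at -2.33 mark the ends of the range.

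Cxcl14 had the largest log2 fold change of the 7 measured members. Cxcl14 (chromosome 13, 56288643 to 56296551, minus strand) had 74.4, 71.5 and 64.6 normalised counts in midkine samples and 8.50, 25.2 and 21.9 in control samples. The midkine values were tightly grouped far above the control values, of which control replicate 1 was the lowest. The log2 fold change was 1.99 (SE 0.28, limma adjusted p = 2.3e-06) on 208 midkine and 57 control reads, higher than that of 99.0% of genes tested. Without control replicate 1 it was 1.54 and still called. Within each library the log2 ratio of Cxcl14 to Col1a1 was -7.49 to -7.13 in midkine and -8.31 to -7.20 in control samples, so the groups overlapped. The ratio to Sparc, another matrix gene, was -7.51 to -7.18 in midkine and -8.90 to -7.84 in control samples and did separate the groups. The stromal list was higher beside it, and its part in the Cxcl14 value was not tested.

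Cxcl16, the myeloid ligand with the highest level, was modestly higher with midkine. Cxcl16 (chromosome 11, 70453983 to 70459984, minus strand) had 607, 654 and 535 normalised counts in midkine samples and 421, 452 and 450 in control samples. Each midkine value exceeded each control value. The log2 fold change was 0.44 (SE 0.09, limma adjusted p = 0.000392) on 1783 midkine and 1363 control reads. With scaling to total counts it was 0.18 and not called (adjusted p = 0.147), under a shift of all genes of -0.26. Its exons overlap Zmynd15 on the other strand, which averaged 53.2 normalised counts in midkine and 15.7 in control samples. Of 10 tested monocyte and macrophage markers 3 were higher and 2 were lower, or 1 and 4 with scaling to total counts, and their summed level was 10919 to 11986 in midkine and 10279 to 11320 in control samples. Lyz2, at 7076 in midkine and 5963 in control samples, made up most of that sum. Cd68 rose by 0.61 and Adgre1 by 0.54 (not called when scaled to total counts), and Mrc1 fell by 1.27 on the log2 scale. Ly6c2 fell by 4.28 on that scale, on 6 midkine and 178 control reads. It met the minimum mean only through its control values. The part of these genes in the Cxcl16 value was not tested. The Cxcl16 receptor Cxcr6 had 8 midkine and 6 control reads.

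Myeloid and stromal ligands did not separate by direction, and the balance of their sums turned on Cxcl12 and Cxcl16. The median log2 fold change was 0.44 for the 3 measured myeloid ligands and 0.82 for the 4 stromal ones. The summed myeloid ligands reached 570 to 683 normalised counts in midkine and 449 to 481 in control samples. The summed stromal ligands reached 914 to 1012 in midkine and 1293 to 1521 in control samples. The log2 ratio of these sums was -0.62, -0.57 and -0.68 in midkine samples and -1.53, -1.66 and -1.60 in control samples, a difference of 0.97, and scaling between libraries cannot alter it. Cxcl16 made up most of the myeloid sum and Cxcl12 most of the stromal sum. The stromal ligands did not move as a group. Without Cxcl12 their sum was 94.8 to 118 in midkine and 25.5 to 48.5 in control samples, the opposite direction to Cxcl12. The log2 ratio of the myeloid to this smaller sum, computed after the values were seen, was 2.40, 2.73 and 2.59 in midkine and 4.14, 3.31 and 3.57 in control samples, a difference of -1.10 and so of the other sign.

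Counts of 3′ end reads do not scale with transcript length, so shares of the summed ligand counts were compared without dividing by length. Cxcl12 held 54.0 ± 1.11% of the summed normalised counts of the 7 ligands in midkine and 73.1 ± 0.378% in control samples (SD, n = 3 each). Cxcl16 held 37.6 ± 1.41% in midkine and 23.5 ± 0.812% in control samples. Cxcl14 held 4.42 ± 0.242% in midkine and 0.966 ± 0.417% in control samples. In midkine samples the level order was Cxcl12, Cxcl16, Cxcl14, Cxcl5, Cxcl2, Cxcl1 and Cxcl10, and each of the last 4 overlapped its neighbour. In control samples Cxcl12 and Cxcl16 again led, while Cxcl14, Cxcl10, Cxcl5, Cxcl2 and Cxcl1 each overlapped the next in order.

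**Figure D4:**
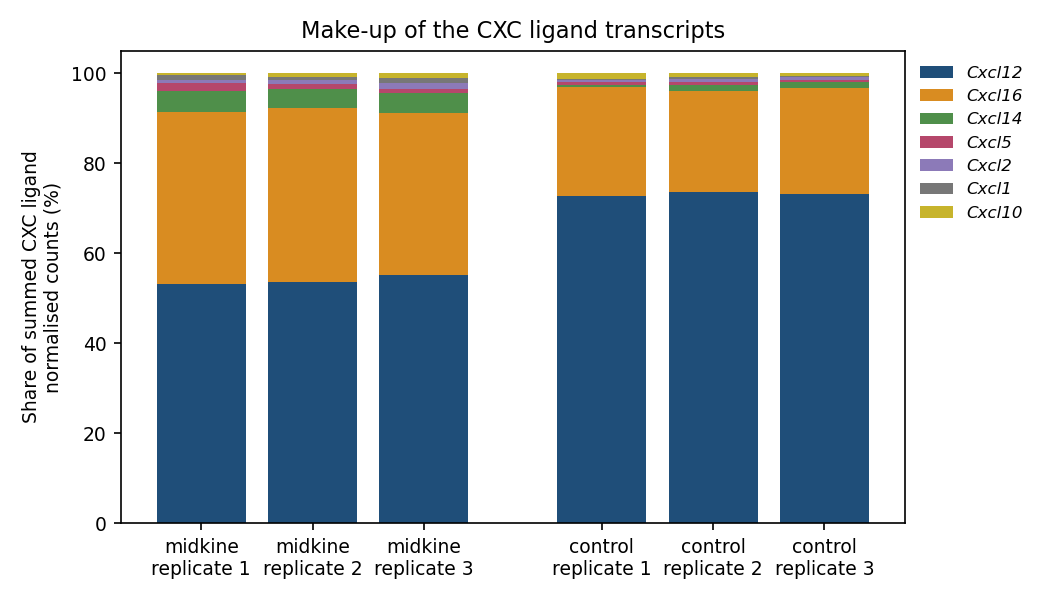
Share of the summed normalised counts of the 7 measured CXC ligands held by each ligand, in percent, 1 bar per library, with the midkine libraries left of the control libraries. Cxcl12 averages 54.0% in midkine and 73.1% in control samples, and Cxcl16 and Cxcl14 hold more in midkine samples.

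Differences between members were examined as within-library log2 ratios of (value + 1) for all 21 pairs. In 12 pairs the groups did not overlap, and each of these reached p = 0.1 in a two-sided exact permutation test over samples, the smallest that 3 against 3 allows (Benjamini-Hochberg adjusted p = 0.175). No pair could therefore pass. The pairs reuse the same 7 members, so they are not separate observations. Among single genes tested 51.3% had groups that did not overlap, and no such share was computed for pairs of other genes. The log2 ratio of Cxcl12 to Cxcl14 was 3.48, 3.65 and 3.64 in midkine samples and 7.06, 5.81 and 5.92 in control samples. That of Cxcl12 to Cxcl16 was 0.47, 0.47 and 0.61 in midkine and 1.59, 1.70 and 1.62 in control samples. The ratio of Cxcl1 to its neighbour Cxcl2 overlapped between groups, at -0.47 to 0.42 in midkine and -0.66 to -0.19 in control samples.

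Both platelet chemokine genes changed, in opposite directions, and the receptor of Cxcl12 was not called. Pf4, a platelet chemokine gene, averaged 167 ± 13.6 normalised counts in midkine and 406 ± 83.7 in control samples (log2 fold change -1.25, limma adjusted p = 9.9e-09). Ppbp, the other platelet chemokine gene, averaged 37.4 ± 6.63 in midkine and 19.4 ± 6.47 in control samples (log2 fold change 0.95, limma adjusted p = 0.00540). Pf4 and Ppbp lie 10811 and 6894 bases from Cxcl5 on chromosome 5. Of the 8 CXC receptors listed 2 were tested, Cxcr3, given above, and Cxcr4, the receptor of Cxcl12. Cxcr4 averaged 92.2 ± 10.4 in midkine and 85.5 ± 6.19 in control samples (log2 fold change 0.10, limma adjusted p = 0.609). Cxcr2, the receptor of the ELR ligands, had 5 midkine and 12 control reads and was below the minimum.

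Proteases that trim or shed these ligands went both ways. Of 8 tested 4 were higher and 2 were lower, as they were with scaling to total counts, with a median log2 fold change of 0.64. Mmp12, a macrophage enzyme that clips ELR ligands, averaged 1061 ± 45.4 normalised counts in midkine and 397 ± 10.6 in control samples. Mmp2, which cleaves the start of Cxcl12, rose by 1.40 on the log2 scale, Mmp14 by 1.19 and Mmp8 by 1.20. Dpp4, which also trims Cxcl12, fell by 0.43 and Adam17 by 0.27. Adam10, the sheddase of Cxcl16, was not called (0.02). Adam10, Adam17 and Dpp4 were named after their values were seen.

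The chromosomal neighbours of the members within 100 kb did not share 1 direction. Around Cxcl10, Naaa (-1.79), Ppef2 (-1.20), Sdad1 (-0.72) and Nup54 (-0.52) were lower on the log2 scale beside Cxcl9. Ppef2 averaged 6.75 normalised counts in midkine and 17.2 in control samples. Like Cxcl9, it met the minimum mean only through its control values. Around Cxcl16, Zmynd15 (1.70) was higher and Med11 (-0.58) was lower. Beside Cxcl1 and Cxcl2, Mthfd2l was not called (0.01). Cxcl12 and Cxcl14 had 0 tested genes in reach.

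Genes with the profile most like that of each called member over the 6 libraries, by Pearson's r of log2(value + 1), were named as a description, since any gene with a large group difference scores high. Cxcl14 was closest to Fblim1 (r = 0.999) and Fignl2 (0.998), and Cxcl12 to Cwf19l1 (0.999) and Rspo2 (0.997). Fignl2 averaged 19.3 normalised counts in midkine and 3.92 in control samples and met the minimum mean only through its midkine values. Rspo2, a secreted enhancer of Wnt signals, averaged 254 normalised counts in midkine and 500 in control samples. Cxcl16 was closest to Rpl37a (0.999) and Rilpl1 (0.997), and Cxcl1 to Cbr1 (0.996) and Glis2 (0.996). Cxcl14 had 423 such genes above 0.95, Cxcl12 had 442, Cxcl16 had 278 and Cxcl1 had 179. These were out of the genes tested other than the members and predicted genes with Gm or Rik names.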

How the data were processed

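RNA of 3 midkine and 3 control samples was prepared from about 500 ng of total RNA with a forward 3′ end kit (QuantSeq), with RNA integrity numbers of 5 to 10, per the labels' protocols. Per the submitters' processing notes, the builds were GRCm38 and mm10 and the tools DESeq2, HTSeq, SAMtools 0.1.19, TopHat2 2.0.10, FastQC 0.11.0 and Bowtie 1.0.0. Neither annotation nor strand setting is given in the sources used here. The authors deposited a signal table of read counts divided by 1 size factor per library. Recovered reads were whole in 100% of values within 1e-06 reads. In midkine replicate 3 a read is worth 1.01, so its step is less sure than in the other 5 columns. No molecular identifiers are named, so reads are not independent molecules.

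The test was limma 3.58.1 in R 4.3.3, with a variance trend, on log2(value + 1) of genes whose mean normalised count reached 10, and p-values were adjusted by the Benjamini-Hochberg method. Only the midkine and control groups exist and both entered the fit, with no replicate block. edgeR 4.0.16 and DESeq2 1.42.0 on recovered reads, other scalings, filters and pseudocounts and the omission of each library were alternatives. The limma fit was tested on simulated data with far fewer changed genes than were called here. That test therefore does not bear on scaling between libraries when many genes change. Positions, overlaps and neighbours came from GENCODE vM21 (GRCm38) and promoters from RefSeq (GRCm38.p6). The members and lists were chosen with earlier results of these data known. Beside the members, up to 4 called genes per list with the smallest p, called neighbours within 100 kb and the 2 most similar genes per called member were named. Some of what this rule selects is not reported here. Python 3.11.15, pandas 2.3.3, NumPy 2.4.6, SciPy 1.17.1 and matplotlib 3.10.9 were used.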

Additional observations from a re-analysis of the deposited data

How the results depend on the processing

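The 12 results were recomputed under 216 combinations of result and alternative. Of these, 200 kept their direction and side of the threshold (counts within 1.5 times), and 1 reversed. Part of the 200 was fixed in advance. The log2 ratio of the sums has no threshold and scaling cancels in it, and the threshold of 0.1 reused the main fit. The reversed one, chosen after seeing the data, left Cxcl12 out of the stromal sum and turned the difference in the log2 ratio of myeloid to stromal sums from 0.97 to -1.10, since Cxcl12 makes up most of that sum. Under scaling to total counts 1283 genes were higher and 4817 lower, with 1 higher member and uncalled log2 fold changes of 0.74 for Cxcl1 (adjusted p = 0.11) and 0.18 for Cxcl16 (0.147), under a median shift of -0.26. A minimum mean of 50 left 1 higher member, since Cxcl14 and the ELR ligands were then not tested. Cxcl1 was also not called at 0.91 with totals without ribosomal RNA, at 0.92 with quantile normalization, at 1.08 with DESeq2 and at 0.98 with the replicate block (adjusted p = 0.0513), and the cause was not tested. Its adjusted p ranged from 0.00886 to 0.137 over 18 alternatives, and leaving out 1 library gave 0.86 to 1.14. Cxcl5 at 0.66 was called at a threshold of 0.1 only. Leaving out 1 library gave 2139 to 2287 higher and 2136 to 2344 lower genes, and 2 to 3 higher members. The log2 ratio of myeloid to stromal sums differed by 0.94 to 1.01 in these subsets.

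Replicate numbers are not said to mark a shared animal or day, and same-numbered samples did not deviate together (correlations of -0.01, 0.03 and -0.06). The replicate block gave 2519 higher and 2641 lower genes and changed 1 member's call, that of Cxcl1. Members with under 100 reads in all limit what can be seen: Cxcl1 had 63, Cxcl2 76 and Cxcl10 87.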
